A study of Mus musculus with 18 samples.

Results

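Genotype was compared in differentiated adipocyte cultures of the mouse, in 6 of the 18 RNA-seq libraries of the series: 3 labelled WT (wild type) and 3 labelled NFIA-Tg, all at day 7. The members were taken by their titles, genotype and time, with no measured value in that rule, but with earlier results of these data known. NFIA-Tg stands for a transgene of NFIA, and the promoter that drives it was not given in the sources used here. Both groups were grown from stromal-vascular cells of inguinal fat, the connective and precursor cells left after fat cells are removed, in medium with serum. At confluence they received the same agents for 48 hours: 0.5 mM isobutylmethylxanthine, 125 nM indomethacin, 1 µM dexamethasone, 850 nM insulin, 1 nM T3 and 1 µM rosiglitazone, a PPARγ agonist. Insulin, T3 and rosiglitazone were then kept at the same doses. How many animals or cell lines the cultures came from was not given in the sources used here, so the p-values measure the spread between these libraries, which may be technical. The other libraries were 6 of the same cultures before induction (day 0) and 6 of inguinal white fat tissue (iWAT), again 3 for each genotype. The series' title names the mitochondrial and the inflammatory gene programmes of adipocytes as its subject.

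NFIA belongs to the nuclear factor I (NFI) family, which binds DNA as dimers at palindromes built on TTGGC. White adipocytes store triglyceride in 1 large droplet, whereas brown and beige adipocytes hold many mitochondria and burn fat for heat through UCP1, an uncoupling protein of the inner mitochondrial membrane. PPARγ, the nuclear receptor that rosiglitazone activates, and C/EBPα drive the adipocyte programme in both, and NFIA is known as a factor of brown fat that opens chromatin for PPARγ.

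The day 7 libraries held 16772594 to 26520682 reads, recovered from the deposited FPKM (fragment counts scaled by gene length and library total). The lowest total was that of NFIA-Tg replicate 3. Within groups the libraries correlated across genes with r of 0.995 to 0.997 on the log2 scale. The 10 most abundant genes held 9.34% to 10.3% of all FPKM in the libraries labelled WT and 13.1% to 13.7% in those labelled NFIA-Tg. The tissue label fits its markers: the 16 adipocyte markers were detected in both groups, with a summed level of 28925 to 33041 FPKM under the WT label and 28882 to 32465 FPKM under the NFIA-Tg label, most of it Fabp4. Preadipocyte and fibroblast markers summed to 1556 to 1756 and 463 to 600.3 FPKM, and smooth muscle and myofibroblast markers to 249 to 280.3 and 105 to 116 FPKM. Macrophage markers summed to 13.97 to 15.1 and 12.1 to 12.9 FPKM, with Adgre1, Ptprc, Tyrobp and C1qa listed at 0 in all 6 libraries. Rpl26, of the cytosolic ribosome, was also listed at 0 in all 6, so a listed 0 alone does not show that a cell type is absent. Endothelial, lymphocyte, mammary epithelial and erythroid markers summed to at most 5.63, 0.170, 0.495 and 0.0301 FPKM. In such bulk RNA, fewer cells of a type and less RNA per cell cannot be told apart.

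Nfia itself went against the label. It measured 12.5, 13.04 and 12.01 FPKM in the 3 libraries labelled WT and 6.44, 7.32 and 7.20 FPKM in the 3 under the NFIA-Tg label, a log2 change of -0.76 (SE 0.05, adjusted p = 3.34e-08). Every library labelled NFIA-Tg lay below every WT library, and the same label went with more Nfia at day 0 and in iWAT, as given with those comparisons. The groups are therefore called by their labels, and higher and lower mean in the libraries labelled NFIA-Tg relative to those labelled WT, not with more or less NFIA. Whether the day 7 labels are right, and whether the deposited FPKM counts reads of the transgene, was not tested, and exchanged labels would turn the sign of every day 7 change. Xlr and 3830403N18Rik, a pair of genes chosen after their values were seen, were higher under the WT label at both days of culture. Both have near-identical copies and can share reads, and the pair was not used as a test of the labels. Of 6607 genes with an adjusted p under 0.05 on both days, 1374 were higher on both and 2821 lower on both. From day 0 to day 7, 864 turned from lower to higher and 1548, Nfia among them, from higher to lower. Of the other family members, Nfib was higher, at 6.98, 7.77 and 7.07 FPKM under the WT label and 12.7, 16.4 and 17.5 FPKM under the NFIA-Tg label, a log2 change of 0.99 (SE 0.09, adjusted p = 7.32e-07). Nfic and Nfix were lower, Nfic from 39.3 ± 1.19 to 15.9 ± 0.420 and Nfix from 31.5 ± 0.901 to 9.36 ± 0.317 FPKM (mean ± SD, n = 3), with log2 changes of -1.25 and -1.65. The groups did not overlap for any of the 4 genes, as for 81.2% of all genes tested at day 7. Over the 12 culture libraries, which fall into 4 groups, the genes whose log2 level followed Nfia most closely were Ptges (r = 0.99), Htra3 (r = 0.99), Hsd17b7 (r = 0.98) and Dapk1 (r = 0.98), given as a description.

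Most genes differed between the labels at day 7. Of 12553 genes with at least 1 FPKM in at least 3 of the 12 culture libraries, 10155 (80.9%) had an adjusted p under 0.05 in limma, which is what "called" means below; 3746 (29.8%) were higher and 6409 (51.1%) lower. Levels of the groups did not overlap for 10192 genes (81.2%). Large changes were fewer: 827 called genes (6.59%) were higher by at least 1 log2 unit, or a doubling of FPKM + 1, and 1357 (10.8%) were lower by as much, while 57 rose and 36 fell by at least 3 units. The median log2 change of all genes was -0.17. It moved by 0.11 and 0.15 under median-of-ratios and quantile scaling, so a change near 0 depends on the scaling. The share of calls that were higher was 36.9% as deposited and 48.1% (4718 higher, 5083 lower) under quantile scaling. With a background this high, whether a gene was called says little, and sizes and levels are given throughout. Every list count below is to be read against these shares, 29.8% higher and 51.1% lower.

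**Figure D1:**
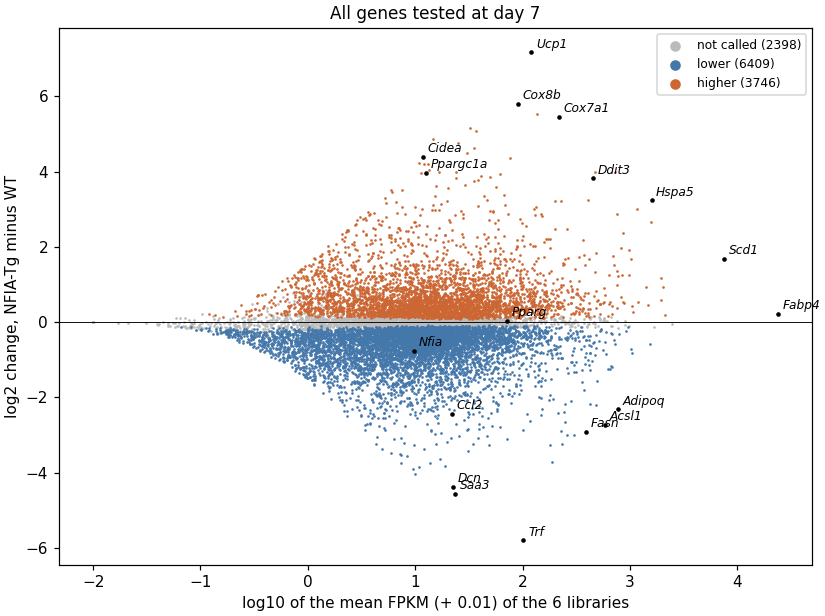
Each point is 1 of the 12553 genes tested, by the log10 of its mean FPKM over the 6 day 7 libraries (x) and its log2 change, NFIA-Tg minus WT (y); orange and blue mark genes called higher (3746) and lower (6409), grey those not called. Ucp1 stands at the top with 7.18 and Trf at the bottom with -5.80, while the abundant adipocyte genes Fabp4 and Pparg lie near 0 and Adipoq, Acsl1 and Fasn lie 2.32 to 2.92 below it.

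The largest increase was that of Ucp1, listed at 0.872, 0.738 and 0.414 FPKM under the WT label and at 208, 248 and 268 FPKM under the NFIA-Tg label, a log2 change of 7.18 (SE 0.10, adjusted p = 8.28e-14). Cox8b, a muscle and brown fat subunit of cytochrome c oxidase, read 3.51, 3.09 and 0.751 FPKM under the WT label and 186, 173 and 175 FPKM under the NFIA-Tg label, a log2 change of 5.81 (SE 0.26, adjusted p = 5.03e-10). Cox7a1, another such subunit, read 15.1, 8.80 and 4.96 FPKM against 433, 428 and 428 FPKM, a log2 change of 5.46 (SE 0.27, adjusted p = 1.18e-09). The lowest WT value of both subunits was that of replicate 3, and no WT library came near the other group. The next increases were in genes of other kinds. Pla2g2e, a secreted phospholipase A2, went from 0.819 to 63.97 FPKM and Car6, a secreted carbonic anhydrase, from 1.17 to 71.8 FPKM. Ghrh, which encodes growth hormone-releasing hormone, was listed at 0 in 2 of the 3 WT libraries and at 29.05, 29.8 and 28.4 FPKM under the NFIA-Tg label. Cdsn, a cell adhesion protein known from the epidermis, rose from 0.829 to 48.9 FPKM, and Adm2, a peptide of the calcitonin family, from 1.71 to 58.97 FPKM. Outside the libraries labelled NFIA-Tg at day 7, Ucp1, Pla2g2e and Ghrh were under 1 FPKM in every culture library. They passed the filter of 1 FPKM only through that group, so that they had to be higher there. Cox8b reached 1 FPKM outside that group only in WT day 7 replicates 1 and 2, and passed only with that group.

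The largest decrease was that of Trf, the iron carrier transferrin. It read 195, 204 and 205 FPKM under the WT label and 2.55, 2.21 and 3.20 FPKM under the NFIA-Tg label, a log2 change of -5.80 (SE 0.08, adjusted p = 6.07e-14). Saa3, an acute-phase apolipoprotein of inflamed fat, fell from 42.6, 42.9 and 53.1 FPKM to 1.42, 1.07 and 0.561 FPKM, a log2 change of -4.56 (SE 0.31, adjusted p = 2.26e-08). Dcn, the collagen-binding proteoglycan decorin, fell from 44.1, 44.9 and 41.97 FPKM to 1.24, 1.15 and 1.02 FPKM, a log2 change of -4.39 (SE 0.16, adjusted p = 7.62e-11). The ranges of the groups lie far apart for all 3 genes. Groups without overlap were a condition for naming the largest increases and decreases, and 81.2% of all genes tested met it. The remaining 5 of the 8 largest decreases were Ngfr, the low-affinity neurotrophin receptor (log2 change -4.05), Ptn, the growth factor pleiotrophin (-3.82), Aldh1a2, an enzyme that makes retinoic acid (-3.76), Plac8 (-3.71) and Sfrp2, a secreted modulator of Wnt signalling and a fibroblast marker (-3.65). Plac8 was the most abundant of these, at 336, 312 and 396 FPKM under the WT label and 25.9, 31.3 and 20.3 FPKM under the NFIA-Tg label.

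Of 31 thermogenic genes in the files 20 passed the filter on low values, 7 of them only through the libraries labelled NFIA-Tg at day 7, so that these had to be higher there. Of the 20, 15 rose and 1 fell, with a median log2 change of 0.91. With no filter 19 of 31 rose and 3 fell, with a median of 0.46. Cidea, a lipid droplet protein abundant in brown fat, was at 0.308, 0.120 and 0.0781 FPKM under the WT label and at 23.3, 23.3 and 23.9 FPKM under the NFIA-Tg label, a log2 change of 4.39 (SE 0.07, adjusted p = 2.82e-13). Ppargc1a, the coactivator PGC-1α that drives mitochondrial biogenesis, was at 0.501, 0.687 and 0.655 FPKM and 21.02, 24.8 and 27.5 FPKM, a log2 change of 3.97 (SE 0.08, adjusted p = 1.26e-12). WT levels of Ucp1, Cidea and Ppargc1a were under 1 FPKM in every library, so the pseudocount of 1 compresses their log2 changes. Among regulators, Ebf2, a factor of brown precursor cells, rose from 4.89 to 10.1 FPKM. The 1 lower member that passed was Clstn3, with a log2 change of -0.29. Adrb3, the adrenergic receptor of mature fat cells, fell from 9.07, 10.2 and 8.61 FPKM to 0.688, 0.773 and 0.768 FPKM (log2 change -2.56).

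The promoter of Ucp1 is printed because it belongs to the gene with the largest change and the transgene encodes an NFI protein; capitals mark TTGGC or its reverse complement, the single arm of the NFI palindrome. The sequence is from RefSeq, assembly GRCm38.p6, chr8:83290098-83290347, plus strand, and covers the 250 bases before the annotated start. The deposited values were made on mm9, and its coordinates are not mixed with these.
Ucp1: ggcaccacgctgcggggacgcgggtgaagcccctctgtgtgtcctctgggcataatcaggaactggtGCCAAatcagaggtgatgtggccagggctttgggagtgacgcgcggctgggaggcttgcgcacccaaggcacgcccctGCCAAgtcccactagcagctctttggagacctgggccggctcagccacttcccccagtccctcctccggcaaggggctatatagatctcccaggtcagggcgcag
Both matches read on the reverse strand and begin 183 and 105 bases before the start. The arm occurs on either strand in 41.9% of 27025 promoters of this length, in 46.1% of 9629 promoters of genes tested at day 7 and in 6 of 13 promoters of the thermogenic list (46.2%). The whole palindrome was found in 11 of the 27025 promoters and in none of those 13. The arm is thus a frequent sequence, and the matches are a description only.

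Most subunits of the respiratory chain were called higher. Complex I, which oxidises NADH, had 27 of 36 subunits higher and 2 lower (median log2 change 0.39). Complexes II and III had 11 of 14 higher and 0 lower (0.51), and complex IV, cytochrome c oxidase, 14 of 15 higher and 0 lower (0.67). Of these 15, 2 passed the filter on low values only through the libraries labelled NFIA-Tg at day 7, which favours higher values there. ATP synthase had 10 of 17 higher and 2 lower (0.16), or 58.8% higher against 29.8% of all genes. Ndufa6 of complex I went from 213, 192 and 196 FPKM to 686, 644 and 589 FPKM, a log2 change of 1.67 (SE 0.06, adjusted p = 1.47e-10). Cox6a2, likewise a muscle-type subunit of complex IV, went from 10.8, 12.04 and 9.51 FPKM to 96.01, 79.3 and 92.9 FPKM, a log2 change of 2.94 (SE 0.09, adjusted p = 2.58e-11). Further subunits that rose were Cox6c (log2 change 1.22), Uqcrc2 of complex III (0.95), Sdhb of complex II (0.79) and Atp5c1 of ATP synthase (0.52). Groups did not overlap for any of these 6 genes, as for 81.2% of all genes tested.

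In the tricarboxylic acid cycle 20 of 24 enzymes were higher and 2 lower (median 0.47). Pcx, pyruvate carboxylase, which refills the cycle, was lower (log2 change -0.88). Of 74 proteins of the mitochondrial ribosome 38 were higher (51.4%, against 29.8% of all genes) and 12 lower (median 0.13), with Mrpl13 the largest increase (1.12). Regulators of mitochondrial biogenesis were mixed, with 9 of 20 higher and 6 lower (median 0.08). Beside Ppargc1a, Sirt3, a mitochondrial deacetylase, rose from 6.20 to 37.97 FPKM (2.44), whereas Pprc1, a relative of PGC-1α, and Nrip1, a corepressor of oxidative genes, were lower (-0.62 and -0.91).

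Fatty acid oxidation did not move as 1 group: 11 of 22 genes were higher and 7 lower (median 0.11). Echs1, a hydratase of the pathway, and Eci2, an isomerase, were higher (log2 changes 0.98 and 0.74). Cpt1a, the liver-type carnitine palmitoyltransferase, fell from 25.6 to 6.07 FPKM, and Acsl1, which activates long-chain fatty acids, read 1000.0, 1027 and 1034 FPKM under the WT label and 142, 167 and 148 FPKM under the NFIA-Tg label, a log2 change of -2.74 (SE 0.08, adjusted p = 1.71e-11). In the list of creatine and calcium cycling, heat-producing cycles that do not need UCP1, 4 of 7 were higher and 2 lower, and 7 more were below the filter. The list median was 0.98, but 0.022 with no filter. Atp2a3, a SERCA calcium pump, rose from 5.004 to 42.1 FPKM, and Ckb, brain-type creatine kinase, from 1.97 to 7.48 FPKM, while Gamt, which makes creatine, fell from 15.2 to 2.54 FPKM.

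**Figure D2:**
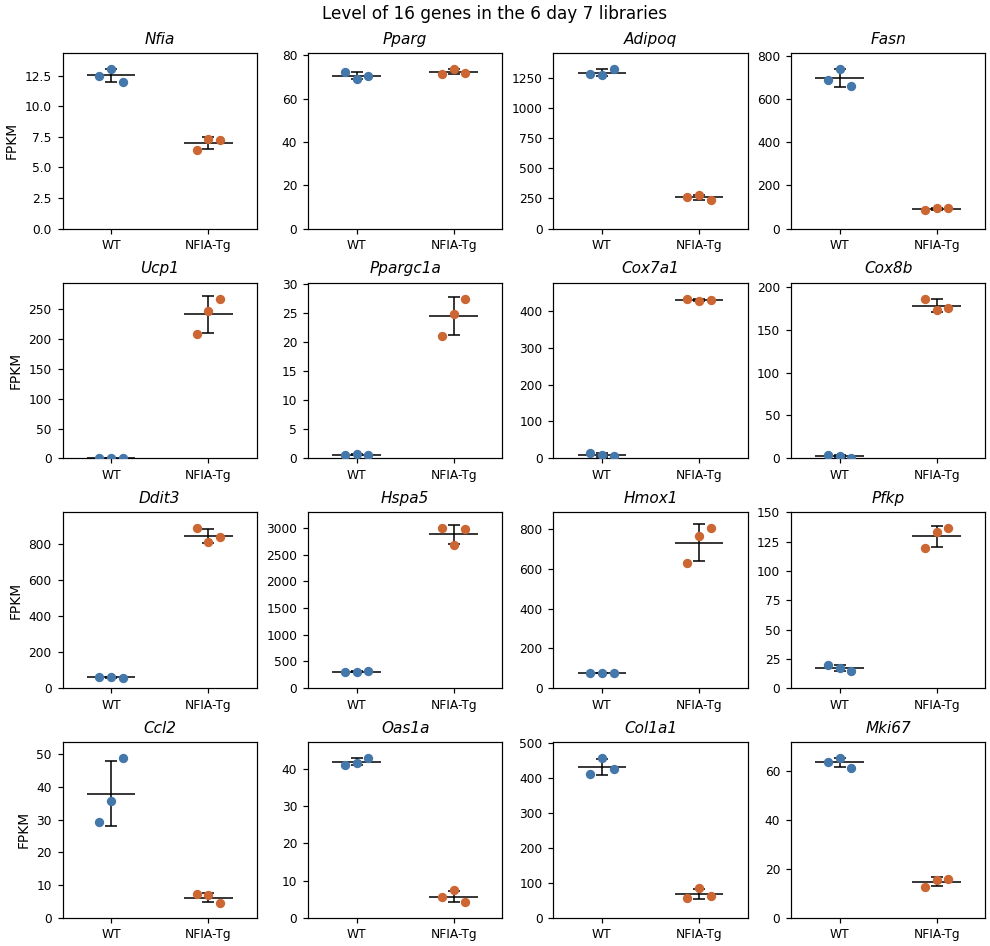
FPKM of 16 genes in the 6 day 7 libraries (points: libraries; line and bar: mean and SD of 3; y axes start at 0 and differ). Pparg overlaps between the labels at about 70 FPKM, and the libraries labelled NFIA-Tg lie above WT for Ucp1, Ppargc1a, Cox7a1, Cox8b, Ddit3, Hspa5, Hmox1 and Pfkp and below it for Nfia, Adipoq, Fasn, Ccl2, Oas1a, Col1a1 and Mki67.

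The master regulator Pparg was not called: it read 72.3, 69.3 and 70.4 FPKM under the WT label and 71.5, 73.8 and 72.02 FPKM under the NFIA-Tg label, with a log2 change of 0.04 (SE 0.05, adjusted p = 0.504). The ranges overlap, and under median-of-ratios scaling the change was 0.17 with an adjusted p of 0.00488. Fabp4, the fatty acid carrier that PPARγ induces, read 24634, 20249 and 21624 FPKM and 26513, 26926 and 23599 FPKM, with a log2 change of 0.21 (SE 0.15, adjusted p = 0.19); it passed the threshold under median-of-ratios scaling (0.35, adjusted p = 0.0373) and in voom on recovered reads (0.21, adjusted p = 0.0387). Cebpa was lower, with 173, 147 and 165 FPKM under the WT label and 72.1, 74.5 and 66.1 FPKM under the NFIA-Tg label, a log2 change of -1.18 (SE 0.08, adjusted p = 2.88e-08). Of 18 adipogenic regulators, 3 were higher and 12 lower (median -0.44). Rxra, the dimer partner of PPARγ, fell by 1.31 log2 units and Klf15 rose by 0.93. Factors that hold adipogenesis back were lower too, 14 of 16, with 1 higher (median -0.40). Klf3 and Nr2f2 fell by 0.71 and 0.67, and Yap1 and Twist1, both tested as such brakes, by 0.38 and 0.39.

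Several products of mature fat cells were lower. Adipoq, which encodes adiponectin, read 1284, 1275 and 1325 FPKM under the WT label and 259, 276 and 240.4 FPKM under the NFIA-Tg label, a log2 change of -2.32 (SE 0.06, adjusted p = 3.99e-12). Cfd (adipsin) and Retn (resistin) fell from 746 to 251 FPKM and from 429.8 to 172 FPKM. Rbp4, a retinol carrier, went the other way, from 49.96 to 203 FPKM (log2 change 2.03). In all, 4 of 10 hormone genes were higher and 6 lower. Among the 16 adipocyte markers 4 were higher and 7 lower, with a median of -0.12 that turned to 0.02 under median-of-ratios scaling. The largest drop was in Car3, a carbonic anhydrase of mature fat, from 378, 458 and 422 FPKM to 36.4, 52.4 and 42.7 FPKM (-3.24).

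Genes of fatty acid synthesis and desaturation went both ways, 5 of 16 higher and 9 lower (median -0.24). Fasn, fatty acid synthase, read 691, 741 and 659 FPKM under the WT label and 86.9, 94.1 and 93.4 FPKM under the NFIA-Tg label, a log2 change of -2.92 (SE 0.05, adjusted p = 6.42e-13). Acly and Acaca, which supply its substrates acetyl-CoA and malonyl-CoA, fell from 411 to 89.4 FPKM and from 127 to 31.6 FPKM. Scd1, which makes oleate from stearate, rose from 4145, 3793 and 2877 FPKM to 9521, 12692 and 12235 FPKM, a log2 change of 1.68 (SE 0.13, adjusted p = 9.96e-08). It is so abundant that quantile scaling gave it the same rank in all 6 libraries and a change of 0. Cholesterol synthesis and uptake had 4 of 21 genes higher and 14 lower (median -0.63), with Dhcr7, the last enzyme of cholesterol synthesis, from 58.6 to 12.5 FPKM and Mvk, mevalonate kinase, from 17.2 to 4.75 FPKM.

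Uptake and assembly of triglyceride were split, with 4 of 12 genes higher and 5 lower. Slc27a1, a fatty acid transporter, fell from 128, 137 and 124 FPKM to 14.7, 13.9 and 13.7 FPKM, a log2 change of -3.12 (SE 0.05, adjusted p = 2.82e-13). Agpat2, an acyltransferase of triglyceride synthesis, fell from 944 to 409.7 FPKM, and Lpin1, a phosphatidate phosphatase, rose from 84.5 to 143 FPKM. Droplet coat and lipolysis genes were even, 8 higher and 8 lower of 20, and Plin5, the coat protein of oxidative cells, rose from 29.1, 28.4 and 22.7 FPKM to 84.9, 82.8 and 77.9 FPKM (1.59). The medians of both lists changed sign under median-of-ratios scaling (to 0.13 and 0.05), and no direction is given for either list.

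Glycolytic genes were higher together, 17 of 19 with 1 lower, and a median log2 change of 0.99. Pfkp, the platelet-type phosphofructokinase, read 19.5, 16.9 and 14.4 FPKM under the WT label and 119.6, 133 and 136 FPKM under the NFIA-Tg label, a log2 change of 2.87 (SE 0.09, adjusted p = 2.26e-11). Gpi1, an early enzyme of the pathway, rose from 210.3 to 747 FPKM, Aldoc, an aldolase, from 1.42 to 12.6 FPKM, and Slc16a1, the lactate transporter MCT1, from 39.7 to 166 FPKM. In the insulin and glucose uptake list 10 of 25 were higher and 13 lower (52%, against 51.1% of all genes). Slc2a1, the basal glucose transporter GLUT1, rose from 27.4 to 65.6 FPKM, while Irs1 and Pik3r1, which carry the receptor's signal, fell from 16.5 to 5.58 FPKM and from 65.3 to 22.3 FPKM. Trib3, listed here as an inhibitor of AKT and also a target of the stress response, rose from 28.03, 28.6 and 26.03 FPKM to 251, 229 and 235 FPKM (3.07).

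The unfolded protein and integrated stress responses, which cells raise when proteins misfold in the endoplasmic reticulum or when translation initiation is held back, were higher almost as a whole. Of 26 genes 24 rose and 2 fell, with a median log2 change of 1.33, and 17 rose by at least 1 unit, against 6.59% of all genes. Hspa5, the chaperone BiP, read 297, 301 and 313 FPKM under the WT label and 2994, 2677 and 2978 FPKM under the NFIA-Tg label, a log2 change of 3.24 (SE 0.05, adjusted p = 2.82e-13). Ddit3, the transcription factor CHOP, read 60.4, 59.98 and 55.2 FPKM and 885, 809 and 838 FPKM, a log2 change of 3.83 (SE 0.05, adjusted p = 6.07e-14). Sdf2l1, a cofactor of BiP, and Ppp1r15a, which directs removal of phosphate from eIF2α, rose from 10.9 to 124 FPKM and from 13.6 to 125 FPKM. The 2 lower members were Psat1 (-0.16) and Sesn2 (-0.12).

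Promoters of 2 members are shown because each holds the motif of 1 arm of this response; Chac1 (log2 change 1.997) was chosen after its values were seen. Capitals mark the match to the ER stress response element in Hspa5 and TGATGNAA, read on the reverse strand and used here for ATF4, in Chac1. The 250 bases before the start are from RefSeq, GRCm38.p6, plus strand, chr2:34771840-34772089 and chr2:119350992-119351241.
Hspa5: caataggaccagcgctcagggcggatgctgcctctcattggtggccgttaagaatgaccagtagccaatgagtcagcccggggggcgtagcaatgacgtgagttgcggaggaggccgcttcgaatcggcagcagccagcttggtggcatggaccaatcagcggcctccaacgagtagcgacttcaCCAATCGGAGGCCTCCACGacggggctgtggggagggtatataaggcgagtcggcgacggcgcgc
Chac1: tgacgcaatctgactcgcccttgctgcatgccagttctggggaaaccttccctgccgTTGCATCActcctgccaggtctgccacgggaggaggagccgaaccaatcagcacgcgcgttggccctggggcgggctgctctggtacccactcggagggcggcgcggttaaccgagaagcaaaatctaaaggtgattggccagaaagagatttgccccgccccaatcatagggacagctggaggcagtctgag
The matches begin 65 bases (Hspa5) and 193 bases (Chac1) before the start. On either strand, the ER stress element occurred in 0.122% of all 27025 promoters and in 5 of 26 of the list (19.2%), and the ATF4 motif in 3.53% and in 5 of 26 (19.2%). No binding was measured, and these counts describe the letters only.

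Antioxidant and metallothionein genes were higher in 11 of 19 cases and lower in 6 (median 0.35). Mt2 and Mt1, metallothioneins that bind zinc and copper, rose from 85.9 to 1369 FPKM and from 186 to 1346 FPKM. Hmox1, heme oxygenase 1, read 76.9, 76.3 and 74.6 FPKM under the WT label and 627, 764 and 804 FPKM under the NFIA-Tg label, a log2 change of 3.24 (SE 0.08, adjusted p = 4.81e-12). Gsta3, a glutathione transferase, rose from 5.48 to 93.98 FPKM. Immediate-early transcription factors, which answer acute stimuli, were mixed, 4 higher and 10 lower of 19 (52.6% lower, against 51.1% of all genes). Maff rose by 1.63, and Gadd45b, Fosl1 and Jun fell by 1.60, 0.95 and 0.79 log2 units.

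Among the cytokines and chemokines that passed the filter on low values, 2 of 21 were higher and 14 lower, with a median log2 change of -1.14. With no filter 3 of 33 were higher and 17 lower, and the median was -0.25. Ccl2, the monocyte chemoattractant MCP-1, read 29.3, 35.8 and 48.9 FPKM under the WT label and 7.11, 6.87 and 4.44 FPKM under the NFIA-Tg label, a log2 change of -2.44 (SE 0.19, adjusted p = 8.11e-08). Cxcl12, a chemokine made by stromal cells, fell from 58.6, 62.5 and 68.8 FPKM to 5.49, 6.002 and 5.94 FPKM (-3.24), and Ccl7 fell from 35.05 to 6.18 FPKM. Cxcl9, an interferon-γ target, fell from 8.20 to 1.05 FPKM. In the NF-κB list 8 of 31 were higher and 20 lower (median -0.38), or 64.5% lower against 51.1% of all genes. Among the lower were the adhesion molecule Vcam1 (-2.34), the interleukin 1 receptor Il1r1 (-1.89) and the feedback inhibitors Tnfaip3 (-1.60) and Nfkbia (-1.11). Of 26 macrophage markers 7 passed the filter, 3 of them higher and 2 lower. Of these 7, 1 passed only through the libraries labelled NFIA-Tg at day 7. Mpeg1 fell from 7.09 to 0.509 FPKM and Cd68 rose from 2.66 to 6.98 FPKM.

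Interferon-stimulated genes, the antiviral set induced by interferons, were lower in 41 of 51 cases and higher in 3 (median -1.07; 27 fell by at least 1 unit, against 10.8% of all genes). Oas2 and Oas1a make the messenger that activates RNase L. Oas2 read 51.98, 55.04 and 56.6 FPKM under the WT label and 6.06, 9.31 and 5.48 FPKM under the NFIA-Tg label, a log2 change of -2.83 (SE 0.20, adjusted p = 2.97e-08). Oas1a read 41.1, 41.7 and 42.9 FPKM and 5.57, 7.37 and 4.17 FPKM, a log2 change of -2.71 (SE 0.21, adjusted p = 7.58e-08); it and Oas1g (-2.24) have near-identical copies and may share reads. Isg20, an exonuclease, was the largest of the 3 increases, from 8.63 to 39.1 FPKM.
The promoter of Oas1a, from RefSeq, GRCm38.p6, chr5:120907526-120907775, minus strand, 250 bases before the start, shows the motif of this set. Capitals mark the matches to the interferon-stimulated response element, here 2 that overlap.
Oas1a: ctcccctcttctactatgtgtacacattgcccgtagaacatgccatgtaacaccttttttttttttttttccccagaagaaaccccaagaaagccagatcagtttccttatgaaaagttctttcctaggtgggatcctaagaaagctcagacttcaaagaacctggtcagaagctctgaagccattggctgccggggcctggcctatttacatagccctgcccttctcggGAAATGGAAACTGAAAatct
The matches begin 20 and 14 bases before the start. The motif occurred on either strand in 3.04% of the 27025 promoters searched, in 2.66% of those of genes tested at day 7 and in 17 of 37 promoters of the list (45.9%).

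Secreted acute-phase and iron-binding proteins, led by Trf and Saa3, were lower in 10 of 15 cases. Orm2, an acid glycoprotein, fell from 5.67 to 0.321 FPKM. It passed the filter on low values only through the libraries labelled WT at day 7, so that it had to be lower under the NFIA-Tg label. Lcn2, lipocalin 2, which binds bacterial iron carriers, was 1 of 2 that rose, from 31.6, 26.1 and 22.05 FPKM to 217, 166 and 134 FPKM, a log2 change of 2.64 (SE 0.28, adjusted p = 2.01e-06).

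Matrix genes had the lowest list medians on the deposited scale. Of 20 collagen chains 19 were lower and 1 higher (median log2 change -1.30), and of 42 other matrix genes 36 were lower and 5 higher (-1.66). Col1a1, a chain of type I collagen, read 412, 458 and 426 FPKM under the WT label and 57.9, 84.1 and 63.01 FPKM under the NFIA-Tg label, a log2 change of -2.66 (SE 0.11, adjusted p = 2.44e-10). Col1a2, Col3a1 and Col6a3 fell from 458 to 56.4 FPKM, from 533 to 66.3 FPKM and from 251 to 50.7 FPKM. Fbn1 and Fbln1, fibres of the elastic network, fell from 109 to 14.9 FPKM and from 45.97 to 4.79 FPKM, and Timp2, an inhibitor of matrix proteases, from 83.9 to 9.54 FPKM. In TGF-β and BMP signalling 17 of 29 were lower (58.6%, against 51.1% of all genes) and 5 higher. The receptors Tgfbr2 and Tgfbr3 changed by -1.35 and -1.85, and of 2 secreted follistatin-like proteins Fstl1 changed by -2.86 and Fstl3 by 1.43.

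Markers of undifferentiated stromal cells moved in the same direction: 14 of 20 preadipocyte and fibroblast markers were lower (70%, against 51.1% of all genes) and 3 higher (median -1.22). S100a4, a fibroblast protein, read 313, 298 and 365 FPKM under the WT label and 23.95, 45.5 and 32.6 FPKM under the NFIA-Tg label, a log2 change of -3.26 (SE 0.17, adjusted p = 1.97e-09). Of 15 smooth muscle and myofibroblast markers 13 were lower, such as Myl9 (-1.99), and 2 higher, among them Des, the muscle filament desmin (from 1.44 to 10.5 FPKM). Cell cycle genes were lower in 35 of 36 cases and higher in 0 (median -1.28). Mki67, the proliferation antigen, read 63.99, 65.4 and 61.5 FPKM under the WT label and 12.5, 15.6 and 15.96 FPKM under the NFIA-Tg label, a log2 change of -2.05 (SE 0.08, adjusted p = 1.01e-10), and Plk1, a mitotic kinase, fell from 33.3 to 8.79 FPKM. The part of these marker differences in the lower matrix, chemokine and cell cycle genes was not tested. Ribosomal proteins changed little, 16 of 74 higher and 33 lower, with a median of -0.10 that was 0.04 under median-of-ratios scaling; Rps4x and Rpl39 were the 2 that fell by at least 1 unit (-1.01 and -1.06).

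Markers of other tissues gave a few called genes at low level. Mb (myoglobin, of muscle) rose from 0.490 to 6.46 FPKM and Pecam1, an endothelial adhesion protein, from 0.133 to 2.98 FPKM. Robo4, Erg and Sox17, other endothelial genes, were listed at 0 in all 6 libraries, as was Rpl26 of the ribosome. Both Mb and Pecam1 passed the filter on low values only through the libraries labelled NFIA-Tg at day 7, so that they had to be higher there. Pmp22 of Schwann cells, also made by fibroblasts, fell from 83.9 to 52.1 FPKM, Cldn15 of mesothelium from 6.51 to 3.45 FPKM and Elane of neutrophils from 1.34 to 0.180 FPKM. Elane passed the filter only through the libraries labelled WT at day 7, so that it had to be lower under the NFIA-Tg label. The Y-linked genes Ddx3y, Eif2s3y, Uty and Kdm5d were expressed in every library of both groups, at 20.3 and 30.4 FPKM on average for Ddx3y (0.55), with log2 changes of 0.19, 0.05 (not called, adjusted p = 0.56) and -0.32 for the others. These calls depend on the scaling: Eif2s3y was not called under TPM (0.12, adjusted p = 0.0684) nor Kdm5d under quantile scaling (-0.10, adjusted p = 0.102), while Uty was called under median-of-ratios (0.17, adjusted p = 0.0383) and quantile scaling (0.25, adjusted p = 0.00517).

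**Figure D3:**
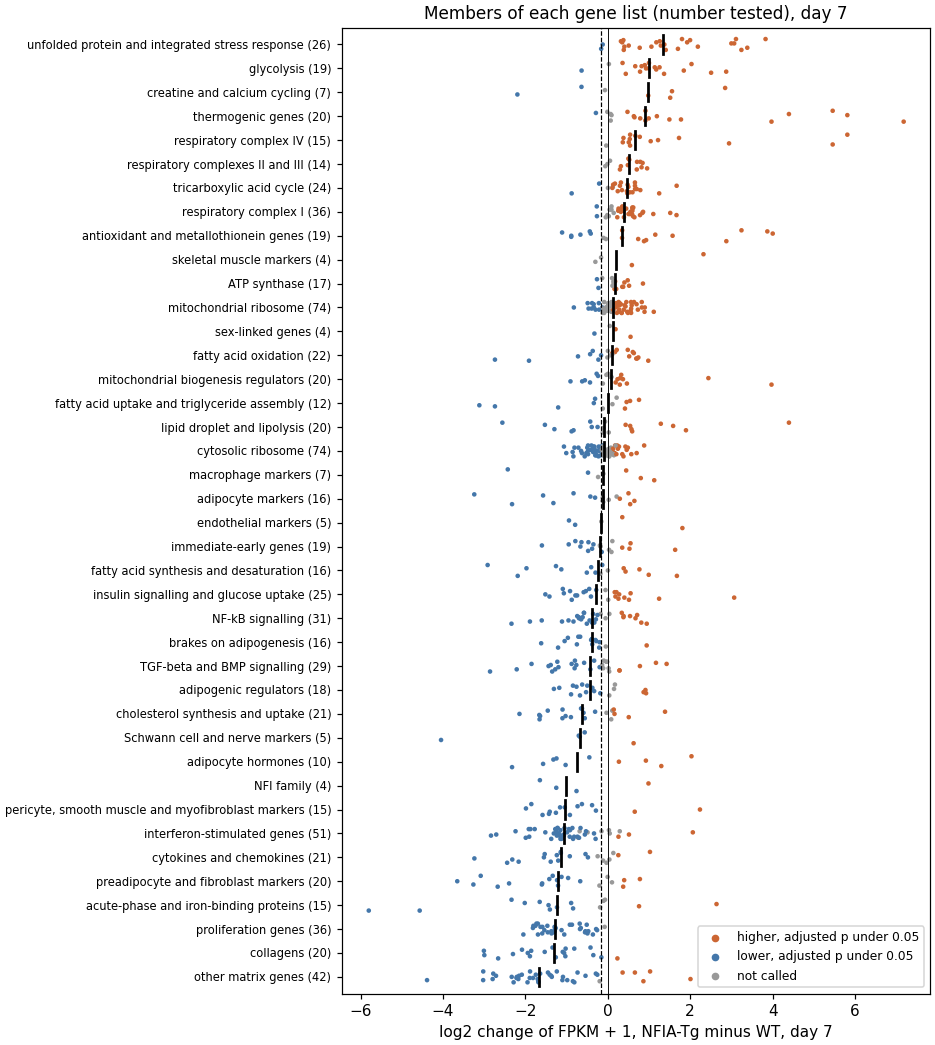
Each row is a gene list (number of members tested) and each point a member, by its log2 change of FPKM + 1, NFIA-Tg minus WT at day 7; black bars are list medians, the dashed line is the median of all genes (-0.17), and orange, blue and grey mark members called higher, called lower and not called. The stress response and glycolysis have the highest medians (1.33 and 0.99), and the matrix, collagen and proliferation lists the lowest (-1.66, -1.30 and -1.28).

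Set against the same cultures before induction, the genotype effect at day 7 differed from that at day 0, in size or direction, for most genes. At day 0, 7911 genes (63.0%) were called, and the difference between the genotype effects at the 2 days was called for 9051 (72.1%), 3701 of them higher at day 7 relative to day 0 and 5350 lower (52.3% higher under quantile scaling, against 40.9%). Of the genes called on both days, 6607 in all (65.1% of the day 7 calls and 83.5% of the day 0 calls), 1374 were higher on both and 2821 lower on both, while 864 turned from lower to higher and 1548 from higher to lower. Nfia was 1 of the last: at day 0 it read 6.42, 6.30 and 6.51 FPKM under the WT label and 11.3, 12.5 and 11.9 FPKM under the NFIA-Tg label, a difference of -1.56 (SE 0.07, adjusted p = 2.27e-09) between the days. Pparg read 3.71, 3.68 and 3.67 FPKM against 14.5, 14.5 and 16.6 FPKM at day 0 and was level at day 7, a difference of -1.75 (SE 0.07, adjusted p = 3.79e-10). Cebpa was higher at day 0, at 7.44 and 37.3 FPKM on average, and lower at day 7, a difference of -3.36 (SE 0.11, adjusted p = 1.43e-10).

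Ucp1, Cidea and Cox8b had means of at most 0.075 FPKM in both groups at day 0, so the differences are close to their day 7 changes, and Ghrh was listed at 0 in all 6 day 0 libraries; for the first 3 genes the differences between the days were 7.17, 4.45 and 5.82. Ppargc1a, Cox7a1, Pla2g2e and Car6 likewise differed between the days, by 3.84, 5.35, 5.29 and 5.004; in voom on recovered reads the value of Ppargc1a was 1.60 with an adjusted p of 0.135, at day 0 means of 0.00623 and 0.103 FPKM. Ccl2 read 461, 495 and 502 FPKM under the WT label and 488, 343 and 386 FPKM under the NFIA-Tg label at day 0, where the ranges overlap, and the gap widened by day 7 (difference of -2.17 (SE 0.26, adjusted p = 1.03e-05)). Adipoq was near 0 before induction, and the days gave a difference of -2.44 (SE 0.08, adjusted p = 1.1e-10). Nfib was higher at both days, and its change in the genotype effect was not called (0.12, adjusted p = 0.423), but sign and call depend on the setting: it was called lower at a pseudocount of 0.1 (-0.68, adjusted p = 0.00292) and in voom (-0.91, adjusted p = 0.00374), and higher under quantile scaling (0.41, adjusted p = 0.0151) and without NFIA-Tg day 7 replicate 1 (0.25, adjusted p = 0.0246). No direction is given for it. By list, the stress response had 7 members higher and 10 lower at day 0 (median -0.06), glycolysis 4 higher and 14 lower (-0.74), and interferon-stimulated genes 1 higher and 45 lower (-0.91). The difference between the days was called higher for 22 of 26, 17 of 19 and 7 of 51 members of these lists, and lower for 1, 2 and 9. Proliferation genes, 33 of 36 lower at day 0 (median -1.19), were lower on both days.

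**Figure D4:**
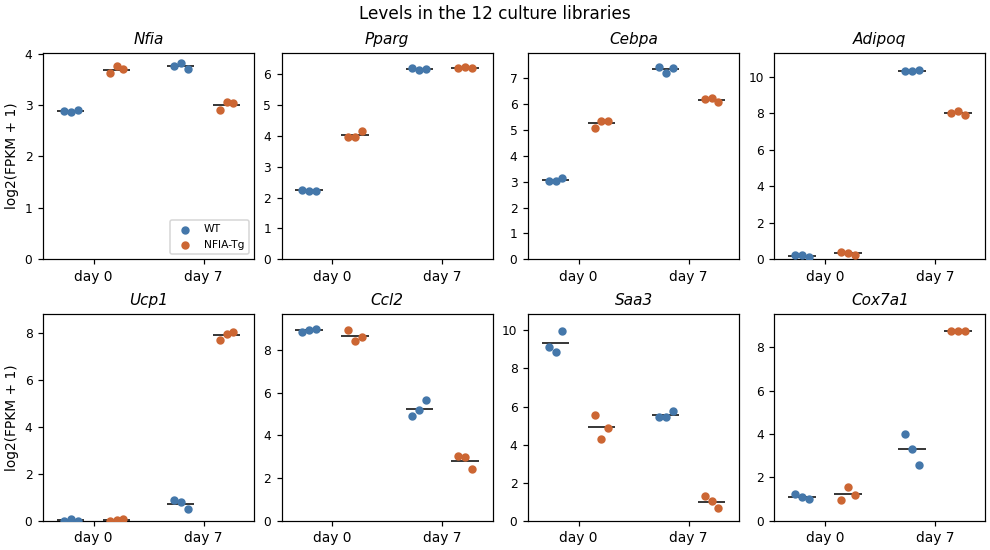
log2(FPKM + 1) of 8 genes in the 12 culture libraries (points: libraries; lines: means of 3), by day and label. Nfia and Cebpa are higher in the libraries labelled NFIA-Tg at day 0 and lower at day 7, Pparg is higher and then level, Ucp1 and Cox7a1 separate at day 7, and Saa3 is lower on both days.

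In iWAT, Nfia was higher in the tissue labelled NFIA-Tg. It read 3.73, 4.19 and 3.94 FPKM under the WT label and 166, 99.6 and 157 FPKM in the NFIA-Tg tissue, a difference of -5.56 (SE 0.21, adjusted p = 8.62e-09) from day 7. Tissue and culture tables were made with different gene tables and separately normalized, so only differences of effects, fitted together on 12 libraries, are compared. The effect at day 7 differed from that in iWAT for 7120 of 13101 genes (54.3%), 2430 higher and 4690 lower at day 7 (50.2% higher under median-of-ratios scaling, against 34.1%). In that fit 3809 genes (29.1%) were called in iWAT, and 2477 in both (30.6% of its day 7 calls and 65.0% of the iWAT calls): 751 higher in both, 763 lower in both, 282 higher at day 7 and lower in iWAT, and 681 the reverse.

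Cidea rose in both settings, in iWAT from 4.30, 25.7 and 10.6 FPKM to 49.8, 60.5 and 53.96 FPKM, with a larger change at day 7 (difference of 2.16 (SE 0.57, adjusted p = 0.00669)). Ucp1 read 1.11, 1.87 and 0.767 FPKM in WT tissue and 1.25, 4.08 and 1.33 FPKM in NFIA-Tg tissue, where the ranges overlap, a difference of 6.74 (SE 0.39, adjusted p = 1.04e-07). Ppargc1a rose by 0.88 in iWAT, less than at day 7 (difference of 3.09 (SE 0.25, adjusted p = 1.38e-06)). Ccl2 fell in iWAT from 11.1, 7.85 and 8.93 FPKM to 1.36, 2.93 and 1.03 FPKM, and its effect was not shown to differ from day 7 (difference of -0.50 (SE 0.36, adjusted p = 0.259)). Trf fell in both, in iWAT by 1.05 log2 units, and Adipoq by 0.46, each by less than at day 7 (differences of -4.75 and -1.86). Dcn, which fell at day 7, read 368, 419 and 444 FPKM in WT tissue and 552, 576 and 426 FPKM in NFIA-Tg tissue, a difference of -4.71 (SE 0.15, adjusted p = 2.19e-09). Adm2 was listed at 0 in all 6 iWAT libraries. Car6 and Ghrh were at most 0.783 FPKM in each, and their effects differed by 5.16 and 4.75, close to their day 7 changes. For Pparg and Fabp4 no difference was called (adjusted p = 0.918 and 0.895). Nfib, Nfic, Nfix and Cebpa differed by 0.79, -1.05, -1.83 and -0.91; in iWAT itself these 4 had adjusted p of 0.187, 0.281, 0.502 and 0.129.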

How the data were processed

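The 18 libraries were grouped by the genotype, time and tissue of their labels. RNA came from Trizol and RNeasy extraction and a stranded poly(A) mRNA kit, per the labels' protocols. STAR 2.7.8a, StringTie 2.1.1 and the build mm9 are named without roles, per the submitters' processing notes; annotation, strand setting and counting rule were not given in the sources used here. Each deposited file holds 1 FPKM value per gene, made by the authors, with a gene length, per the file headers. In the cultures all values came back as whole reads within a tolerance of 0.01, while the iWAT values gave no reads and their depth is unknown.

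Genotype was tested on log2(FPKM + 1) by limma 3.58.1 under R 4.3.3, eBayes with trend, two-sided, on the 12 culture libraries (8 residual degrees of freedom), for genes with at least 1 FPKM in at least 3 of them. P-values were Benjamini-Hochberg adjusted over all genes tested, with calls at an adjusted p under 0.05. Fold changes on this scale understate those of low genes. The contrast with iWAT used the 6 day 7 and 6 iWAT libraries. Alternatives were other pseudocounts, filters, scalings and variance models, a replicate block, voom on recovered reads, the day 7 libraries alone and leaving out each library.

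The members, gene lists, rules and tests were chosen with earlier results of these data known. Named were 12 fixed genes, the 8 largest increases and 8 largest decreases (called, groups not overlapping, higher group's mean 5 FPKM or more; without Nfia and predicted, histone, ribosomal or small RNA genes), up to 4 called members of each programme list and 2 of each marker list by size of change, the sex-linked genes, and 4 genes closest to Nfia. The contrasts add 6 genes each. Clstn3, Psat1, Sesn2 and Chac1 are named outside the rule, after their values were seen. A few of these genes are left out here. Promoters are RefSeq's.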

Additional observations from a re-analysis of the deposited data

Results flagged for a closer look

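The genotype effect of these genes at day 7 differed from that in another setting by a test of the difference itself (limma, adjusted over all genes tested). Against day 0, the effect on the log2 scale was lower at day 7 for Nfia (-1.56), Nfic (-1.04), Nfix (-1.75), Pparg (-1.75), Cebpa (-3.36), Fabp4 (-0.78), Adipoq (-2.44) and Ccl2 (-2.17). It was higher at day 7 for Ppargc1a (3.84), Ucp1 (7.17), Cidea (4.45), Cox8b (5.82), Cox7a1 (5.35), Pla2g2e (5.29), Car6 (5.004) and Ghrh (4.87). Ghrh was listed at 0 in all 6 day 0 libraries, so its value is its day 7 change alone. Ppargc1a, Ucp1, Cidea, Cox8b, Pla2g2e and Ghrh passed the filter on low values only through the libraries labelled NFIA-Tg at day 7. Such differences were called for 72.1% of all genes.

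Against iWAT, the effect was lower at day 7 for Nfia (-5.56), Nfic (-1.05), Nfix (-1.83), Cebpa (-0.91), Adipoq (-1.86), Trf (-4.75) and Dcn (-4.71). It was higher for Nfib (0.79), Ppargc1a (3.09), Ucp1 (6.74), Cidea (2.16), Car6 (5.16), Ghrh (4.75) and Adm2 (4.49), the last again the day 7 change alone, since Adm2 was listed at 0 in all 6 iWAT libraries. Here 54.3% of all genes were called.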

How the results depend on the processing

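None of the 3 counts of called genes moved by over 1.5 times. At day 7 the count was 8267 to 11614 over 13 alternatives (lowest with a filter at FPKM 5, highest with no filter) and 9706 to 9773 without 1 library, against 10155. The difference from day 0 gave 7371 to 10364, and 8569 to 8815 without 1 library; that from iWAT gave 5902 to 7698, and 6226 to 7252. With a replicate block the counts were 10193, 9058 and 7061. Deviations of same-numbered libraries correlated at 0.08, -0.03 and -0.06, and those of differently numbered ones at -0.13 to 0.15. With 3 libraries in each group, whether the numbers pair the samples cannot be told from these values. Medians of macrophage, endothelial, skeletal muscle and mesothelial markers changed sign under some alternatives. In the lipid droplet, mitochondrial biogenesis, fatty acid oxidation, Schwann cell and neutrophil lists 1 member each passed the filter only through NFIA-Tg at day 7. Only through WT at day 7, 1 member each passed in the lipid droplet, acute-phase, other matrix, TGF-β and Schwann cell lists, and 2 in the neutrophil list. With no filter the list medians of thermogenic genes, cytokines, adipocyte hormones and TGF-β signalling shrank to 0.46, -0.25, -0.36 and -0.17, from 0.91, -1.14, -0.74 and -0.42. That of creatine and calcium cycling, with 7 of 14 members tested, shrank from 0.98 to 0.022, and that of acute-phase proteins from -1.23 to -0.89.

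Some named genes changed sign. Under TPM the values were -0.039 (Pparg, day 7), -0.020 (Uty, day 7), -0.37 (Nfib, difference from day 0) and -0.023 (Fabp4, difference from iWAT). For Nfib, pseudocounts of 0.1 and 0.5 gave -0.68 and -0.16, and voom gave -0.91, called at 0.1 and in voom. The difference of Pparg from iWAT was 0.18 under median-of-ratios and 0.010 under quantile scaling, and ranged from -0.31 to 0.19 without 1 library. That of Fabp4 ranged from -0.090 to 0.22 without 1 library, and Uty at day 7 from -0.0056 to 0.11. Scd1 at day 7 was 0 under quantile scaling, where its rank is tied. The cause of the other turns was not tested. Reads per library set the depth, and counts cannot be judged for genes below 1 FPKM.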

Other observations

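A pair of genes, chosen after their values were seen, differed between the labels at both days of culture by nearly the same amount. Xlr read 7.70, 7.96 and 10.1 FPKM in the day 7 libraries labelled WT and was listed at 0 in all 3 labelled NFIA-Tg; at day 0 it read 8.44, 8.78 and 8.87 FPKM against 0, 0 and 0.193 FPKM. The transcript 3830403N18Rik read 9.49, 8.51 and 11.05 FPKM at day 7 under the WT label and at most 0.0585 FPKM under the other. In iWAT both genotypes were at most 1.84 FPKM for either gene. Both have near-identical copies and can share reads, so their values are uncertain.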
